A study of Mus musculus with 34 samples.

Results

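The glutathione peroxidases and glutathione transferases of mouse cumulus cells (CCs) were read out of an RNA sequencing table of 34 libraries. A row was taken as a member when its symbol began with Gpx, Gst or Mgst, leaving out Gstcd and the pseudogenes, and 32 of the 25965 rows were members. They comprised 8 glutathione peroxidases (Gpx), 4 transferases of the alpha class (Gsta), 7 of the mu class (Gstm), 4 of the theta class (Gstt), 2 of the pi class (Gstp), 3 microsomal transferases (Mgst), and Gstk1, Gsto1, Gsto2 and Gstz1.

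All mice were superovulated C57BL/6J females, which started treatment at 8 weeks of age. In the pharmacological hyperleptinemic model injections ran for 16 days, either of saline (16 C, n = 3) or of leptin at 100 µg daily (16 L, n = 5). In the diet-induced obesity protocol they were fed chow diet with 11% of energy from fat (CD) or high-fat diet with 58% (HFD), percentages that are those of the labels and differ slightly from the study's methods, for 4 weeks (CD, n = 5 and HFD, n = 5) or 16 weeks (CD, n = 6 and HFD, n = 7). A further 3 libraries came from mice labelled low weight gainers after 16 weeks of HFD. Each library held the CCs of 1 cumulus-oocyte complex per the labels, whereas the study's methods speak of cells collected per animal. How far the spread between libraries was biological or technical therefore could not be told apart.

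Glutathione is a small thiol that cells use against peroxides and reactive compounds. Glutathione peroxidases reduce hydrogen peroxide and lipid peroxides with glutathione as the electron donor, and part of the family carries selenocysteine, an amino acid encoded by a UGA codon, in the active site. Glutathione transferases couple glutathione to reactive molecules, and the microsomal members sit in membranes and are related to the enzymes that make leukotrienes and prostaglandins. CCs are the granulosa cells around the oocyte, and they are known to supply it with metabolites and with means of keeping its glutathione reduced.

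The active-site codon is what divides the 8 peroxidases, and it is shown here because the members that moved most were found on both sides of the divide. The lines give the coding strand of GRCm38 over 27 bases, 5′ to 3′, with the active-site codon in capitals. It is TGA for selenocysteine in the first 4 and TGC or TGT for cysteine in the others.
Gpx1: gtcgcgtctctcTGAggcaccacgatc
Gpx2: gtggcgtcactcTGAggaacaactacc
Gpx3: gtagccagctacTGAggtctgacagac
Gpx4: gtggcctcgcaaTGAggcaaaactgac
Gpx5: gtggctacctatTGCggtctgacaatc
Gpx6: gtggcatccttcTGTggcctgacagct
Gpx7: gtagctagcgaaTGTggcttcacagac
Gpx8: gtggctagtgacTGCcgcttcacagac
In the GENCODE M21 annotation of GRCm38, the codon of Gpx3 lay at chr11:54907256-54907258 in exon 2 on the plus strand, and that of Gpx1 at chr9:108339451-108339453 in exon 1 on the plus strand. The codon of Gpx8 lay at chr13:113045661-113045663 in exon 2 on the minus strand, and that of Gpx7 at chr4:108403430-108403432 in exon 2 on the minus strand. Gpx4 carried it in exon 3, at chr10:80054737-80054739 on the plus strand. All 8 codons fell within 1 coding exon.

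Between 1104611 and 13207018 reads were counted per library, and members took 0.174% to 0.794% of them. The summed level of 15 cumulus and granulosa markers was 2673 to 6781 normalised RPM (defined in the next paragraph) in 33 libraries, and 1109 in 16 L replicate 18. That library stood apart. Its 15 oviduct epithelium markers summed to 35558 RPM, against 27.0 to 1793 in the other 16 L libraries and 26.5 to 114 in 16 C, its red blood cell markers summed to 11252 RPM, and its cumulus expansion markers to 12.6 RPM. The leptin tests of the members are given with and without it. In 4-week HFD replicate 5 the oocyte markers summed to 610 RPM, against 8.25 to 9.61 in the other 4 libraries of that group. In bulk libraries such as these, fewer cells of a type and less RNA per cell cannot be told apart.

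Levels are given as normalised RPM, which is a gene's reads scaled to a fixed library total (RPM) after TMM normalization of the 34 libraries, and as normalised RPM per kilobase of exon where members are compared with each other. Mgst1, a membrane-bound transferase that also reduces lipid peroxides, had the highest median level, 997 RPM per kb with a range of 156 to 3793 over the 34 libraries. Gpx1, the cytosolic peroxidase, followed with a median of 134 RPM per kb (69.4 to 449). Gpx3, the secreted peroxidase, had 80.9 (16.9 to 338), Gpx7 67.1 (31.5 to 142), Gpx4 61.5 (25.9 to 191) and Gpx8 60.8 (21.2 to 158). Over all libraries the ranges of these 5 peroxidases overlapped each other, and that of Mgst1 overlapped that of Gpx1.

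The next members were Mgst2 with a median of 39.6 RPM per kb, Gstm5 with 33.9, Gstp1 with 31.6, Gstm2 with 28.2, Gsto1 with 25.8, Gstm1 with 20.8 and Mgst3 with 17.2. The leading member of the theta class was Gstt2, at 2.75 RPM per kb, and that of the alpha class was Gsta4, at 2.38. Under scaling by library totals the order of the medians changed only in Gstm5 and Gstp1, which traded places, and without 16 L replicate 18 it did not change.

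Part of the family was close to absent. Gpx5 had no read in any of the 34 libraries, which allows up to 3 reads in each, or 0.214 to 2.75 RPM depending on depth. Gsta1 had 1 read in all, Gpx6 2, Gstt4 3, Gsta2 8 and Gstm3 15. Gsta1 shared 90.5% of its 50-base words with other genes, Gsta2 49.8% and Gstm3 28.8%, so that reads of these 3 may have been lost in the counting. Gpx2, the peroxidase of the gut epithelium, had 130 reads, of which 106 were in 16 L replicate 18, and Gsto2 had 57, of which 41 were there. Gsta3 had 489 reads with 363 in that library, Gstt3 573 with 464, and Gstt1 399 with 285. Gstp2, which shared 54.3% of its 50-base words with other genes, had 100 reads.

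These 12 members did not pass the filter of the tests, because their reads were too few or lay in too few libraries. The other 20 were tested in each of the 6 comparisons. A member that passed did so on its reads in the libraries compared, so the 20 are not the whole family. Members with sequence in common with other genes may have gained or lost reads by the counting: Gpx4 shared 34.7% of its 50-base words, mostly with Gpx4-ps2, Gstp1 shared 33.7% and Gstm1 18.9%. For Gpx1, Gpx3, Gpx7, Gpx8, Mgst1 and Mgst3 the share was 0%.

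**Figure D1:**
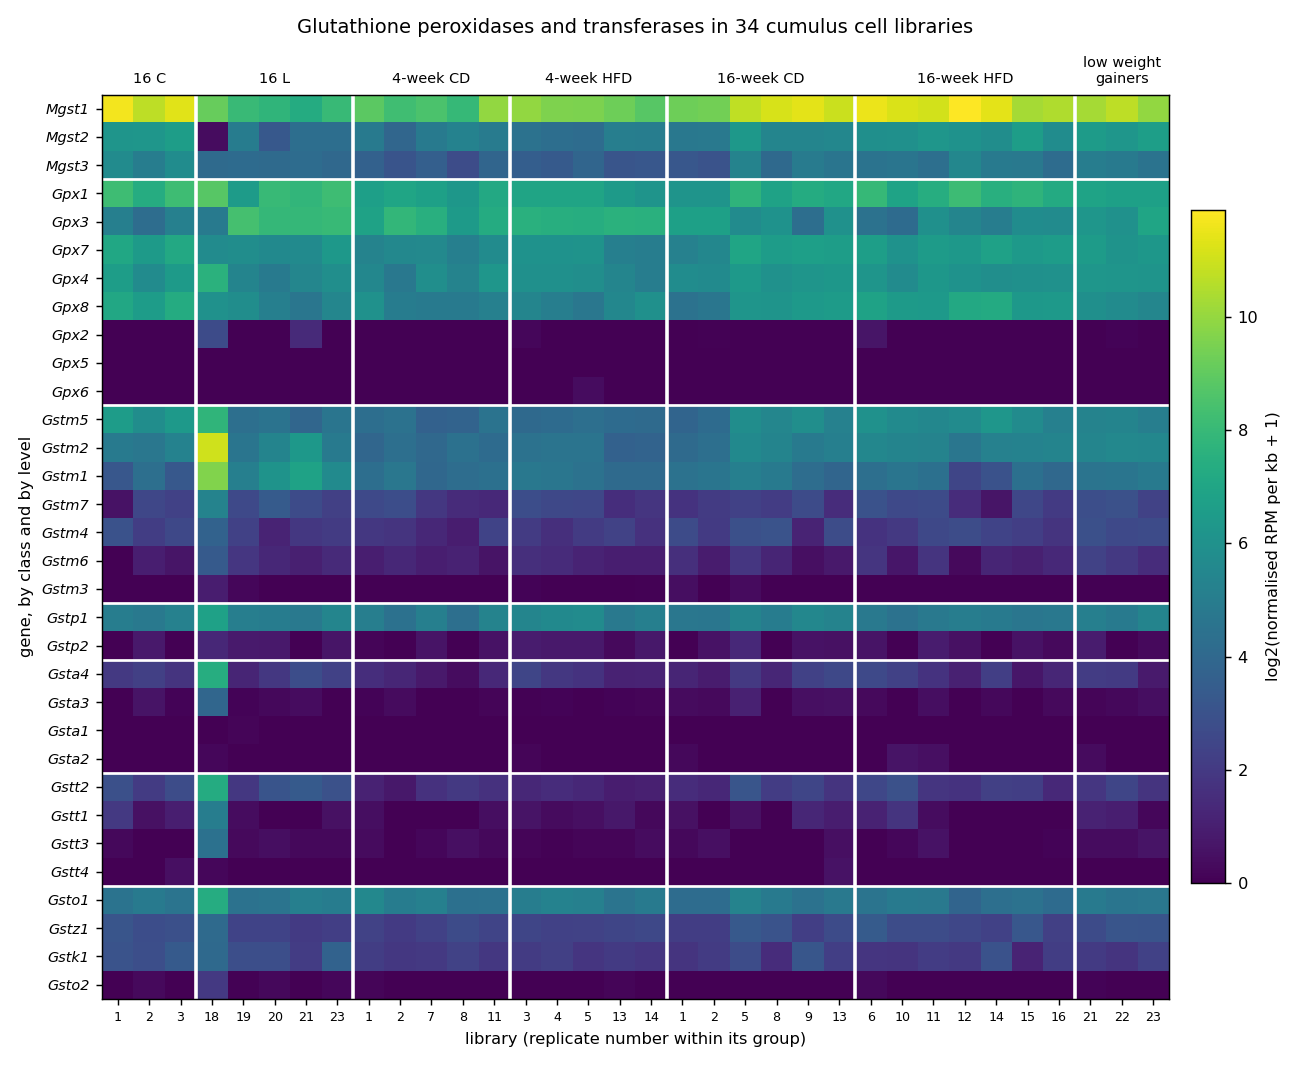
Level of the 32 members (rows, grouped by class and ordered by median level) in each of the 34 libraries (columns, grouped by treatment), as log2(normalised RPM per kb + 1). Mgst1 is the brightest row in most libraries. In the Gstm rows other than Gstm3, and in Gsta3, Gsta4, Gstt1, Gstt2 and Gstt3, 16 L replicate 18 is brighter than the other libraries. Gpx2, Gpx5, Gpx6, Gsta1, Gsta2 and Gstt4 are dark almost throughout.

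The make-up of the family differed between groups. As a share of the summed level per kb, the 3 microsomal transferases made up a median of 74.7% in 16 C (74.5% to 78.8%) and 23.3% in the 4 libraries of 16 L other than replicate 18 (17.8% to 29.8%). Peroxidases made up 17.6% in 16 C (16.1% to 19.4%) and 55.8% in those 4 libraries (54.3% to 59.2%). Gpx3 alone went from 0.779% to 22.5% of the family. The ranges of the 2 groups did not overlap for any of these shares. Mgst1 was the largest part of the sum in 16 C, so a class can gain share without gaining level. Of the 5 peroxidases tested without replicate 18, 4 were lower in 16 L and 1 higher (median log2 fold change -0.986).

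In 16 L replicate 18 the Gstm class took 60.6% of the family level, the peroxidases 15.1% and the microsomal transferases 10.9%. In the diet groups the microsomal share had a median of 43.6% in 4-week CD and 56.1% in 4-week HFD. At 16 weeks it was 72.6% for CD and 79.6% for HFD, while the low weight gainers had 69.0%. The ranges of CD and HFD overlapped at both times, from 35.0% to 63.2% against 48.8% to 61.5% at 4 weeks, and from 61.9% to 81.4% against 67.2% to 83.8% at 16 weeks. The mice of the 4-week and 16-week groups also differed in age, and no test was made between these times.

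**Figure D2:**
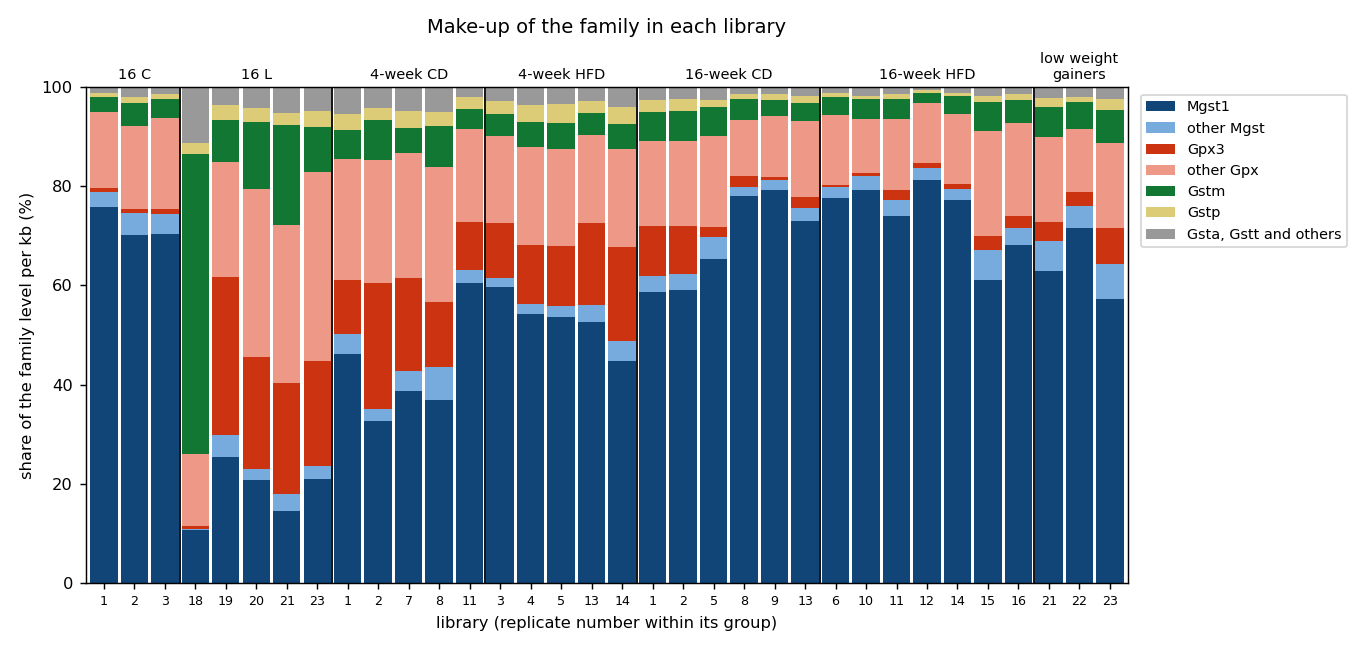
Share of the summed level per kb of the family (y axis, percent) taken by Mgst1, the other microsomal transferases, Gpx3, the other peroxidases and the remaining classes in each of the 34 libraries (x axis). Mgst1 fills 70.2% to 75.9% of the bars of 16 C and 10.6% to 25.3% of those of 16 L, and Gpx3 fills 21.2% to 32.0% in 16 L without replicate 18.

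Leptin against saline was compared first, in the 5 libraries of 16 L and the 3 of 16 C. Of the 20 members tested, 3 were lower and 1 was higher in 16 L at an adjusted p under 0.05 (edgeR quasi-likelihood test, Benjamini-Hochberg adjustment over all genes tested). This was 20.0% of the members tested, against 8.56% of all 11723 genes tested. Over all genes 4.06% were higher and 4.5% lower. The members that fell were Mgst1, Mgst3 and Gpx8, and the one that rose was Gpx3. The median log2 fold change was 0.14 over the 20 members and 0.27 over all genes. Scaled by total counts the median of all genes was 1.08, and Gstm5, Gstm4, Gpx4 and Gstz1 changed sign. The direction of a small change therefore depended on the scaling.

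Mgst1 had the largest fall. It stood at 6630, 3373 and 5222 RPM in the 3 libraries of 16 C, and at 1118 (replicate 18), 538, 447, 315 and 518 in those of 16 L. Every 16 L library lay below every 16 C library, also when scaled by total counts, where the highest was 976 against 2160 for the lowest of 16 C. The log2 fold change was -3.10 (SE 0.545, adjusted p = 0.0173 in edgeR), and -3.56 without replicate 18 (SE 0.337, adjusted p = 9.09e-05).

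Mgst3, a microsomal peroxidase and transferase, had 58.3, 35.0 and 59.8 RPM in 16 C and 17.9, 18.5, 17.9, 19.3 and 16.5 in 16 L. The 16 L libraries lay close together, replicate 18 among them, and below those of 16 C. The log2 fold change was -1.50 (SE 0.303, adjusted p = 0.026 in edgeR), and -1.57 without replicate 18 (SE 0.266, adjusted p = 0.0016). Scaled by total counts the groups overlapped, from 15.7 to 25.3 RPM in 16 L and from 22.4 to 43.0 in 16 C.

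Mgst2, which can make leukotriene C4, had 271, 274 and 358 RPM in 16 C, 113, 32.2, 68.2 and 68.8 in 16 L replicates 19, 20, 21 and 23, and 1.2 in replicate 18, where only 7 reads were counted. All of 16 L lay below 16 C, but the difference did not pass the test with replicate 18 in the fit (log2 fold change -2.42, SE 0.877, adjusted p = 0.0989 in edgeR). It did without it (-2.18, SE 0.361, adjusted p = 0.00141).

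Among the peroxidases, Gpx8, a cysteine-type enzyme of the endoplasmic reticulum, fell. Its levels were 143, 98.4 and 165 RPM in 16 C and 66.8 (replicate 18), 59.2, 35.3, 25.5 and 45.2 in 16 L, without overlap. The log2 fold change was -1.54 (SE 0.38, adjusted p = 0.0403 in edgeR), and -1.78 without replicate 18 (SE 0.307, adjusted p = 0.00172). The groups overlapped when scaled by total counts (33.5 to 71.5 against 63.0 to 114). Gpx8 lies within Cdc20b on the opposite strand, and Cdc20b had 0 reads in 16 C and 4 in 16 L, against 1450 and 1236 for Gpx8.

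Gpx3, the selenocysteine peroxidase that is secreted into plasma and extracellular fluid, was the member that rose. It had 61.3, 32.5 and 63.6 RPM in 16 C and 614, 440, 437 and 472 in 16 L replicates 19, 20, 21 and 23. In replicate 18 it had 51.7, within the range of 16 C, so that the groups overlapped in that library and in no other. The log2 fold change was 2.94 (SE 0.724, adjusted p = 0.0402 in edgeR), and 3.16 without replicate 18 (SE 0.314, adjusted p = 0.000108). Replicate 19, with the highest level, had an oviduct marker sum of 27.0 RPM, inside the 26.5 to 114 of 16 C. Replicates 20, 21 and 23 had sums of 1158, 1793 and 315 RPM, and the part of these markers in the result was not tested.

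Gpx7, the other cysteine peroxidase of the endoplasmic reticulum, had 176, 114 and 183 RPM in 16 C and 62.3 to 103 in 16 L. The groups did not overlap, and the difference missed the threshold (log2 fold change -1.09, SE 0.314, adjusted p = 0.056 in edgeR). Gpx1 had 427, 240 and 421 RPM in 16 C and 647 (replicate 18), 133, 364, 325 and 415 in 16 L, with overlapping ranges (log2 fold change 0.07, SE 0.502, and -0.30 without replicate 18, SE 0.389). Gpx4, which protects membranes from lipid peroxidation, had 167, 91.5 and 153 RPM in 16 C and 330 (replicate 18), 69.6, 49.7, 73.0 and 99.2 in 16 L (log2 fold change -0.12, SE 0.626).

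Transferases of the mu class had the highest positive values. That of Gstm2 rested on 1 library. It had 47.7, 41.7 and 63.6 RPM in 16 C and 39.8, 68.0, 136 and 46.9 in 4 libraries of 16 L, but 3558 in replicate 18. The log2 fold change of 3.95 (SE 1.74, adjusted p = 0.149 in edgeR) became 0.42 without that library (SE 0.428, adjusted p = 0.447). Gsta4, which acts on the lipid aldehyde hydroxynonenal, behaved likewise, with 3.08 to 4.73 RPM in 16 C, 1.7 to 7.57 in 4 libraries of 16 L and 216 in replicate 18 (log2 fold change 3.60, and 0.00 without it). Gstt2 had 26.5, 13.2 and 24.3 RPM in 16 C, 11.5 to 38.6 in those 4 libraries and 654 in replicate 18 (log2 fold change 2.89, and 0.29 without it).

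Gstm1 was high in replicate 18 and also differed in the others. It had 12.1, 28.0 and 12.7 RPM in 16 C, 1159 in replicate 18, and 50.7, 101, 166 and 74.6 in 16 L replicates 19, 20, 21 and 23, all above 16 C. With all libraries the log2 fold change was 4.13 (SE 1.22, adjusted p = 0.0611 in edgeR), and without replicate 18 it was 2.31 (SE 0.502, adjusted p = 0.00562). The oviduct marker sums of those 4 libraries were 27.0, 1158, 1793 and 315 RPM, in the same order as the Gstm1 levels. In replicate 19 alone the marker sum was within that of 16 C, and Gstm1 was at 50.7 RPM there. The part of these markers in the result was not tested.

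In 16 L replicate 18, 20 of the 32 members were above all other 33 libraries, among them 7 of 7 Gstm, 3 of 4 Gstt, 2 of 4 Gsta, 3 of 8 Gpx, 1 of 2 Gstp, the 4 members Gstk1, Gsto1, Gsto2 and Gstz1, and 0 of 3 Mgst. The distance was greatest for Gstt3, at 79.2 RPM against 2.08 in the next library, for Gsta4 (216 against 7.57) and for Gstm2 (3558 against 136). Mgst2 was below all other libraries. The share of all genes above or below every other library there was not counted. These counts are therefore not a result about the family. The genes of the mu class adjoin each other on chromosome 3, from 107895821 (Gstm5) to 108044894 (Gstm4), and those of the theta class on chromosome 10, from 75774115 (Gstt3) to 75834881 (Gstt2).

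Without replicate 18, 10 of 19 members tested were called, 52.6%, where 41.8% of all 11077 genes were called, so that the share of the members was near that of all genes. Of these 2 were higher (20.2% of all genes were) and 8 lower (21.7%). Beside Mgst1, Mgst2, Mgst3, Gpx8, Gpx3 and Gstm1, the members called were Gstm5, Gpx7, Gpx4 and Gstz1. Gstm5 had 120, 70.9 and 107 RPM in 16 C and 24.3, 28.3, 17.9 and 30.7 in the 4 libraries, and fell by 2.04 on the log2 scale (SE 0.278, adjusted p = 0.000504 in edgeR). In replicate 18 it had 278, above every other library. Gpx7 fell by 1.14, Gpx4 by 0.99 and Gstz1, an enzyme of tyrosine breakdown, by 0.90, and scaled by total counts the 2 groups overlapped for each of these 3 members. The counts carry no strand information, and Gstz1 overlaps Pomt2, which had 17.3% as many reads as Gstz1 in 16 C and 30.7% in 16 L. Gstm5 overlaps 4933431E20Rik, with 10.4% and 9.22%. These shares in 16 L include replicate 18, which held 479 of the 823 reads of Gstz1 and 1626 of the 2051 of Gstm5. They were not computed for the 4 libraries alone. For Gpx4 the ranges of 16 C and of the 4 libraries also overlapped after TMM normalization.

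The members not called with or without that library, after TMM normalization, included Gstp1, with 49.2, 41.4 and 56.7 RPM in 16 C, 170 in replicate 18 and 51.1, 47.9, 41.3 and 63.4 in the other 16 L libraries (log2 fold change -0.03 without replicate 18, SE 0.244). Gsto1, an omega class enzyme, had 44.7, 56.1 and 47.0 RPM in 16 C, 332 in replicate 18 and 43.3, 46.2, 68.9 and 61.7 in the others (0.05 without replicate 18, SE 0.27). After TMM normalization the ranges of 16 C and of 16 L without replicate 18 overlapped for both members. Scaled by total counts they did not, with 26.5 to 39.0 against 54.3 to 83.9 for Gstp1 and 32.4 to 35.9 against 52.3 to 90.5 for Gsto1, and both were then called higher with all 8 libraries (adjusted p = 0.0436 for Gstp1 and 0.0453 for Gsto1 in edgeR). Gsto1 overlaps Wdr96, which had 0 reads in 16 C and 392 in 16 L with replicate 18 included. Gstk1, Gstm4 and Gstm7, at 0.757 to 17.9 RPM in those 7 libraries, did not pass either.

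**Figure D3:**
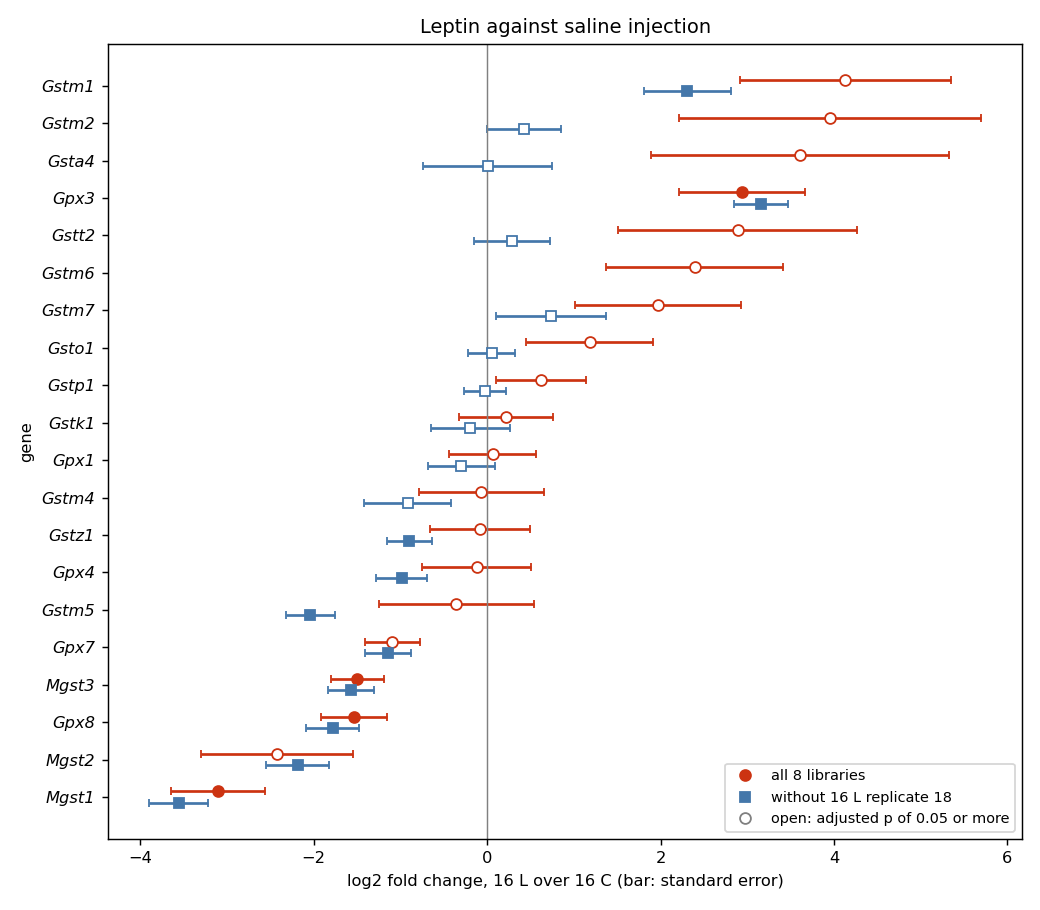
Log2 fold change of 16 L over 16 C (x axis) with its standard error for the 20 members tested with all 8 libraries (circles) and the 19 tested without 16 L replicate 18 (squares), filled where the adjusted p was under 0.05. Mgst1, Mgst3, Gpx8 and Gpx3 are filled in both fits, while Gstm2, Gsta4 and Gstt2 move to near 0 when replicate 18 is left out.

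The calls in the leptin comparison depended on which library was left out. Without 16 L replicate 19, 1603 genes were called over the whole table and 5 members, the 4 called with all libraries and Gstm1, and without replicate 18 it was 4635 genes and 10 members. With any of the 3 libraries of 16 C left out, or 16 L replicate 20, 21 or 23, no member was called, while the directions of Mgst1, Mgst3, Gpx8 and Gpx3 stayed the same. In those 6 fits 30 to 150 genes were called over the whole table. The markers of cumulus expansion were 8 genes chosen for the expansion of CCs around ovulation. They summed to 1225 to 2244 RPM in 16 C and 207 to 670 in 16 L without replicate 18. With all 8 libraries 5 of them were tested and 0 called, with a median log2 fold change of -0.22. Markers of other cell types were also raised in 16 L libraries other than replicate 18. The red blood cell markers summed to 1941 RPM in replicate 21, against 1.54 to 30.2 in 16 C, and the macrophage and neutrophil markers to 1182 in replicate 20 and 1376 in replicate 23, against 117, 785 and 121 in 16 C. In replicate 19 these sums were 3.1 and 79.7 RPM. The oocyte markers summed to 12.2 to 17.1 RPM in 16 L without replicate 18, with 17.1 in replicate 19, against 1.51 to 2.31 in 16 C. Of the marker genes, Kit, Ltf and Laptm5 were called higher in 16 L with all 8 libraries. The part of all these markers in the differences of the members was not tested.

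Other genes of the glutathione system were counted over 5 lists, with all 8 libraries in the fit and replicate 18 among them. Their counts stand beside the 8.56% of all genes that were called. In 16 L against 16 C, 1 of 14 tested genes of glutathione synthesis and turnover was higher (the exporter Abcc1, log2 fold change 1.63) and 1 lower (the glutathione synthetase Gss, -1.20). Of 16 genes of NADPH supply and thiol recycling 2 were lower and 1 higher. Idh1, the cytosolic isocitrate dehydrogenase that makes NADPH, had the greatest of these differences, from 24141 to 30280 RPM in 16 C against 313 to 3810 in 16 L (log2 fold change -4.23, SE 0.81, adjusted p = 0.0231 in edgeR). Esd, which releases glutathione from its adduct with formaldehyde, fell by 2.04, and Pgls, of the pentose phosphate pathway, rose by 1.76.

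Of 15 genes around the transcription factor Nrf2, Srxn1, Mafk and Nfe2l1 were higher and its competitor Bach1 lower. Of 10 genes of selenoprotein synthesis Secisbp2l was lower (-1.47) and the other 9 were not called. Of the 8 relatives in leukotriene and prostaglandin synthesis 0 were called. The median log2 fold changes of the 5 lists ran from -0.29 to 0.94, around the 0.27 of all genes.

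**Figure D4:**
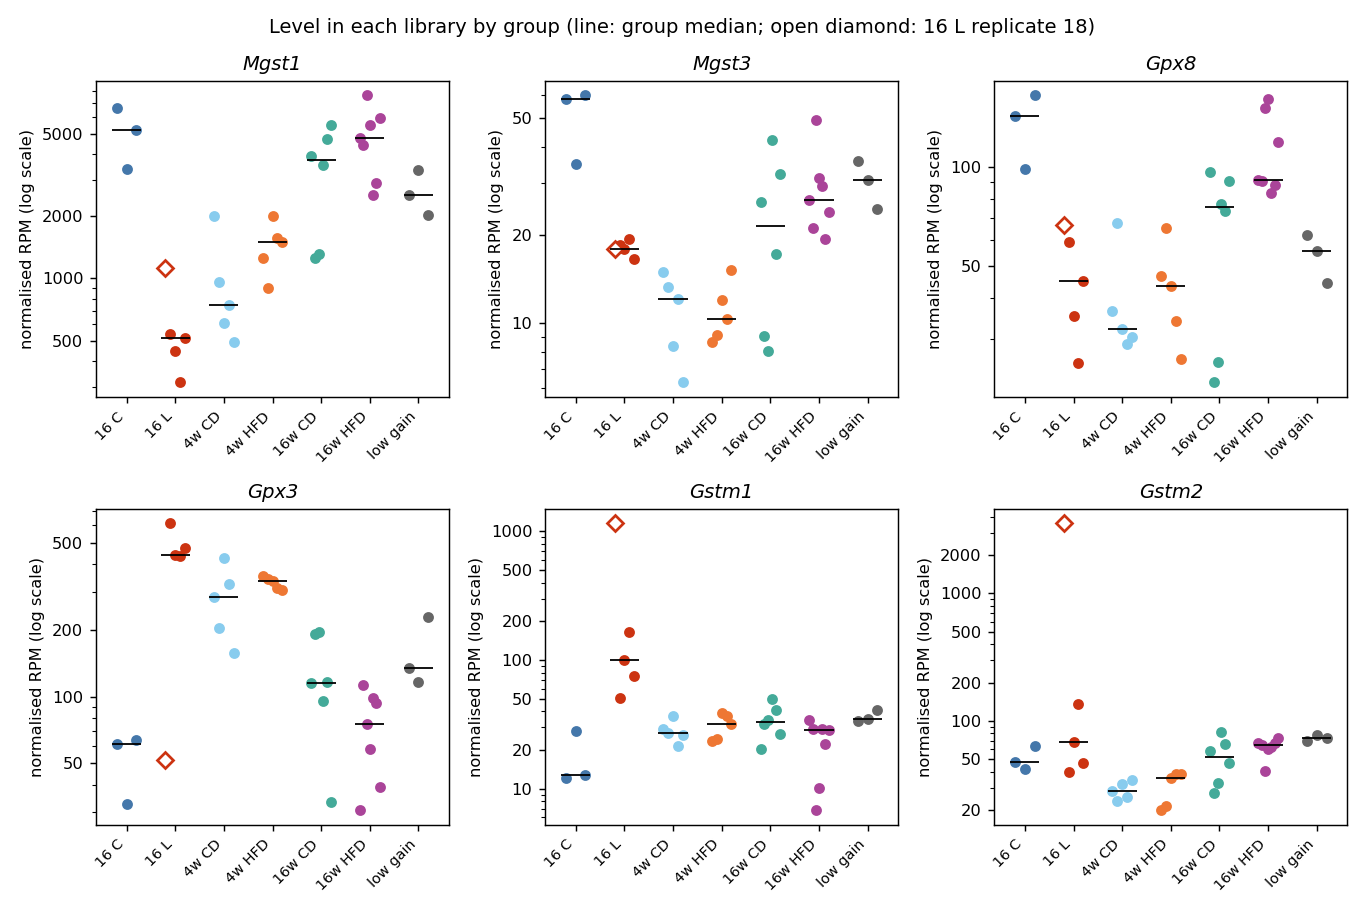
Level of Mgst1, Mgst3, Gpx8, Gpx3, Gstm1 and Gstm2 (y axis, normalised RPM, log scale) in each library by group (x axis), with the group median as a line and 16 L replicate 18 as an open diamond. Gpx3 is at 437 to 614 RPM in 16 L without replicate 18 against 32.5 to 63.6 in 16 C, and Gstm2 is at 3558 RPM in replicate 18 against at most 136 elsewhere.

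For 4 weeks of diet, 0 of the 20 members were called in HFD against CD (edgeR), and 0 had an unadjusted p under 0.05, where 4.26% of all genes were called. The smallest adjusted p was 0.251, for Gstp1. DESeq2 called 0 members and limma-voom with sample quality weights 6. Over all 11727 genes tested, DESeq2 called 1290 and limma-voom 4048. Gpx3 had 285, 205, 426, 324 and 158 RPM in CD and 354, 343, 335, 313 and 304 in HFD, and the narrower HFD range lay inside that of CD. Mgst1 had 1991, 964, 608, 742 and 493 RPM in CD and 1249, 895, 1993, 1570 and 1504 in HFD (log2 fold change 0.58, SE 0.353, adjusted p = 0.319 in edgeR), with overlapping ranges. The largest rise was that of Gsta4, from 0.392 to 2.44 RPM in CD to 1.48 to 5.8 in HFD (0.91, SE 0.508), and the largest fall that of Gstt2, from 2.98 to 12.2 in CD to 3.89 to 7.86 in HFD (-0.48, SE 0.367).

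Standard errors over the 20 members ran from 0.223 to 0.508 in this comparison, so a small difference was not detectable with 5 libraries a group. Without HFD replicate 5, which had the oocyte markers, again 0 members were called. Of the pathway genes, Maff, a small Maf partner of Nrf2, was lower (-1.36), as was Lrp8, a receptor for selenoprotein P (-1.28). Of 13 cumulus and granulosa markers tested, Fshr alone was called, higher in HFD (1.87), and the median log2 fold change was 0.04. The markers of this list summed to 3257 to 6235 RPM in HFD and 3209 to 4438 in CD.

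For 16 weeks, again 0 of the 20 members were called in HFD against CD (edgeR), where 3 genes of 10861 were called in all (0.0276%). DESeq2 and limma-voom called 0 members, where they called 1056 and 5 of the 10861 genes. An unadjusted p under 0.05 was found for 4 members, Gpx8, Mgst2, Gpx1 and Gpx3. How many of all genes had one was not counted in any comparison, so this is not a result about the family. Gpx8 had a lowest, median and highest level of 22.2, 75.5 and 96.3 RPM in CD and of 83.4, 91.5 and 161 in HFD (log2 fold change 0.82, SE 0.324, adjusted p = 0.132 in edgeR). Gpx3 had 33.3, 116 and 196 in CD and 30.6, 75.0 and 113 in HFD (-0.80, SE 0.369, adjusted p = 0.188). The ranges of both groups overlapped for these 2 members.

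Mgst2 had 97.3, 153 and 294 RPM in CD and 203, 225 and 362 in HFD (0.64, SE 0.255), and Gpx1 had 102, 181 and 305 in CD and 172, 263 and 405 in HFD (0.63, SE 0.279). Mgst1 had 1253, 3711 and 5469 in CD and 2530, 4752 and 7636 in HFD (0.53, SE 0.399). Within CD, replicates 1 and 2 held the lowest levels of Mgst1 (1253 and 1319), Gpx8 (22.2 and 25.6), Gpx1 (102 and 102) and Gstm5 (16.7 and 21.8) and the highest of Gpx3 (192 and 196). These 2 libraries also stood apart beyond the family. Their genes of NADPH supply and thiol recycling summed to 5067 and 5143 RPM, against 14962 to 21943 in the other CD libraries. Their TMM factors were 1.367 and 1.326, against 0.762 to 0.989. A fit without both of them was not made.

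The change of diet effect between 4 and 16 weeks was called for 0 of 20 members (interaction in edgeR, 3.66% of all genes called). An unadjusted p under 0.05 was found for Gstp1 (log2 difference of effects -0.80, SE 0.335) and Mgst2 (0.90, SE 0.399). Here too the share of all genes with one was not counted. DESeq2 called 0 members and limma-voom 2, where they called 1165 and 2355 of 12235 genes. Of 14 cumulus and granulosa markers tested, Fshr (-2.67) and Hsd17b1 (-1.74) were called lower and Inhbb (1.46) higher in the interaction (edgeR).

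The low weight gainers were compared with each 16-week group. Against CD, 0 of 20 members were called (edgeR), where 1 gene of 11620 was called in all (0.00861%), and Mgst2 alone had an unadjusted p under 0.05, with 336, 281 and 378 RPM (log2 fold change 1.04, SE 0.351, adjusted p = 0.349). DESeq2 called 0 members and limma-voom 1, where they called 250 and 196 of the 11620 genes. The largest rise was that of Gstm6 (1.07, SE 0.57) and the largest fall that of Gstk1 (-0.44, SE 0.512).

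Against 16-week HFD, 3 of 20 members were called (15.0%), Gpx8 and Gpx1 lower and Gpx3 higher in the low weight gainers. Over all 11258 genes 20.7% were called, 10.8% higher and 9.93% lower, so that the share of the members was not above that of all genes. Gpx8 had 62.0, 55.6 and 44.5 RPM in the 3 low weight gainers, all below the 83.4 to 161 of HFD, also when scaled by total counts (log2 fold change -1.09, SE 0.255, adjusted p = 0.00809 in edgeR).

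Gpx1 had 170, 153 and 156 RPM in the low weight gainers, just below the 172 to 405 of HFD (-0.86, SE 0.253, adjusted p = 0.0249 in edgeR). Gpx3 had 135, 117 and 231, just above the 30.6 to 113 of HFD (1.12, SE 0.332, adjusted p = 0.0274). Scaled by total counts the ranges of the 2 groups overlapped for Gpx1 and Gpx3. In the fit of all 34 libraries together none of the 3 was called. Without low weight gainer replicate 23 none was called either, and without replicate 21 only Gpx8 was.

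The same 3 peroxidases had log2 fold changes of 0.82 (Gpx8), 0.63 (Gpx1) and -0.80 (Gpx3) in 16-week HFD against CD, which shares the HFD libraries with this comparison. Against CD the low weight gainers had -0.25, -0.21 and 0.35 for Gpx8, Gpx1 and Gpx3. Mgst1 had 2525, 3348 and 2023 RPM in the low weight gainers (-0.92 against HFD, SE 0.355, adjusted p = 0.0722 in edgeR), and Gstm5 49.6, 50.8 and 41.6 (-0.55, SE 0.228, adjusted p = 0.0929), with ranges that overlapped those of HFD.

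**Figure D5:**
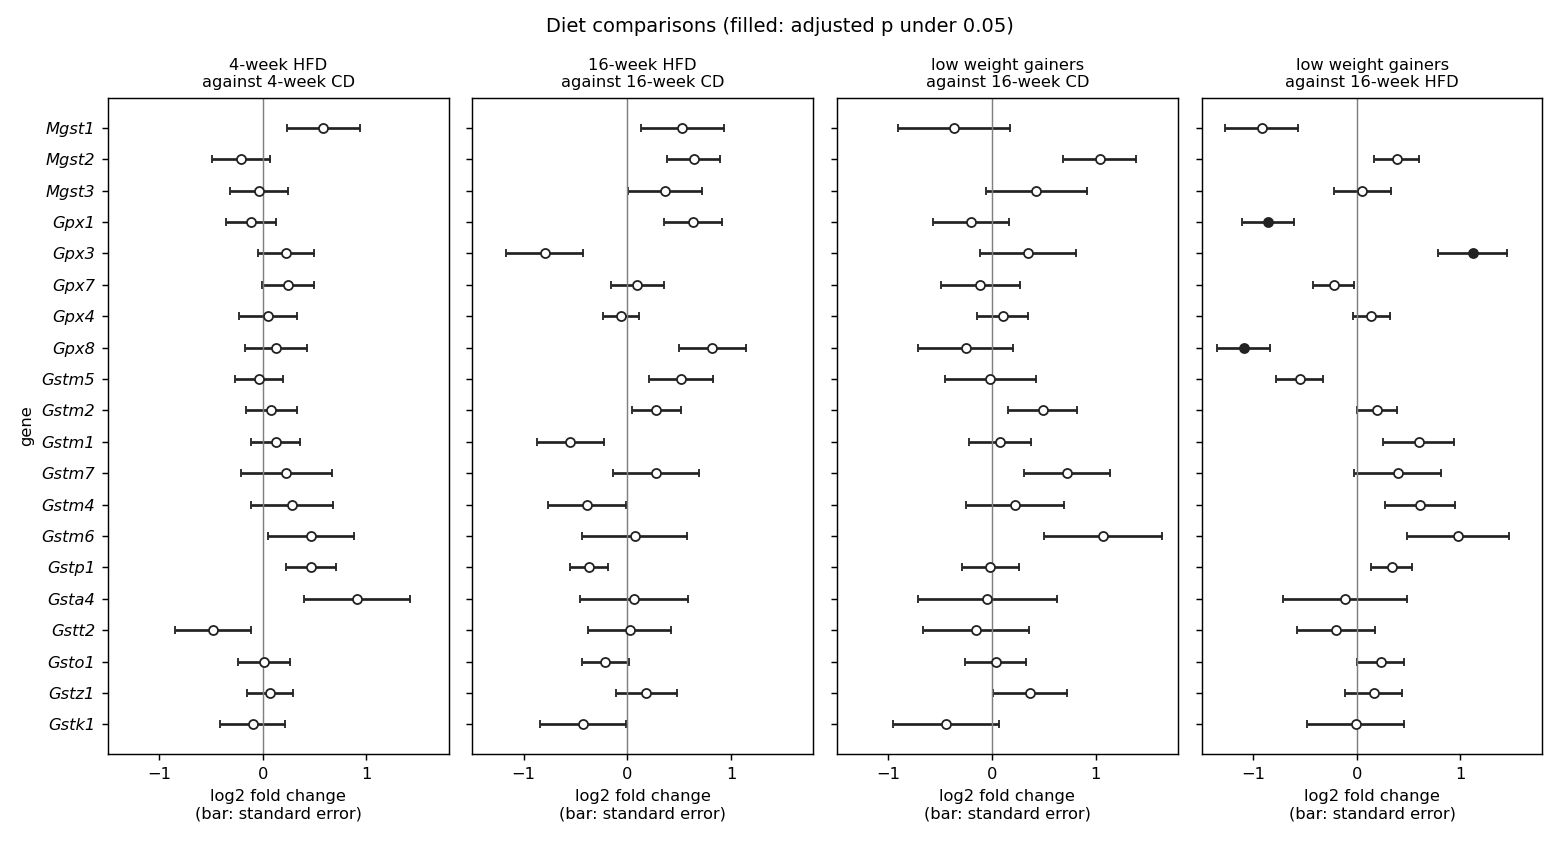
Log2 fold change (x axis) with its standard error of the 20 members tested (rows) in the 2 HFD against CD comparisons and in the low weight gainers against each 16-week group, filled where the adjusted p was under 0.05. Only Gpx8 and Gpx1, to the left, and Gpx3, to the right, are filled, in the low weight gainers against 16-week HFD.

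In the low weight gainers against 16-week HFD, 2 of 13 genes of glutathione synthesis and turnover were higher and 0 lower. With 20.7% of all genes called in this comparison, neither this count nor those of the other 4 lists were above that share. Gss had 143 to 156 RPM against 69.7 to 115 (log2 fold change 0.64, SE 0.19, adjusted p = 0.0258 in edgeR), and Slc3a2, the heavy chain of the cystine carrier, had 324 to 580 against 126 to 258 (1.18, SE 0.236, adjusted p = 0.00353). Of 16 genes of NADPH supply and thiol recycling, glutathione reductase Gsr (0.84, with 522 to 588 RPM against 129 to 400) and Glrx5 (0.70) were higher. The ranges of Gss, Slc3a2 and Gsr did not overlap between the groups.

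Of 15 genes around Nrf2, Sqstm1 (0.63) and Mafg (1.20) were higher and Bach1 (-1.13) was lower. Lrp8 was the 1 lower gene of 10 in selenoprotein synthesis (-1.06), and Ptgs2, the inducible cyclooxygenase, the 1 lower of 7 in the leukotriene and prostaglandin list (-0.89). In 16-week HFD against CD, in the low weight gainers against CD and in the interaction, 0 genes of the 5 lists were called. The cumulus expansion markers, which hold Ptgs2, summed to 729 to 881 RPM in the low weight gainers and 419 to 3101 in HFD. The cumulus and granulosa markers summed to 5760 to 6509 against 2950 to 4230, but single markers went both ways. Of 14 tested, Cyp11a1 (1.28) and Amhr2 (0.94) were called higher and Inhba (-1.07) and Inhbb (-0.90) lower, with a median log2 fold change of -0.14. Of the markers of other cell types, the neutrophil gene S100a8 was called higher (4.72). Its list summed to 318 to 386 RPM against 141 to 689 in HFD. The oviduct epithelium markers summed to 308 RPM in low weight gainer replicate 22 and 562 in HFD replicate 10. In the other libraries of both groups they summed to 5.84 to 106. Red blood cell markers summed to 96.4 and 185 RPM in the same 2 libraries, against 0 to 38.7. The part of all these markers in the differences of Gpx8, Gpx1 and Gpx3 was not tested.

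Gstp1 and Gsto1 lead their classes by level per kb and were not called in edgeR with TMM normalization. Under other settings Gstp1 was called higher in 4-week HFD (limma-voom, adjusted p = 0.0198), lower in 16-week HFD (edgeR with total counts, adjusted p = 0.0318), and in the interaction with both of these settings. Gstp1, which conjugates a wide range of electrophiles, had a lowest, median and highest level of 38.1, 54.4 and 68.1 RPM in 16-week CD. The same for 16-week HFD were 33.0, 41.2 and 48.7, and the low weight gainers had 52.7, 42.9 and 62.4. At 4 weeks it had 59.2, 51.0, 32.2, 52.1 and 29.8 in CD and 42.4, 52.1, 63.6, 76.2 and 80.8 in HFD. For Gsto1 these were 35.0, 48.5 and 78.3 in 16-week CD against 26.8, 43.8 and 56.3 with HFD, and the low weight gainers had 57.3, 47.4 and 50.5. After TMM normalization these ranges overlapped throughout. Scaled by total counts, those of Gstp1 at 16 weeks did not, with 23.9 to 36.4 in HFD and all CD libraries above, up to 62.1.

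Across all groups without 16 L replicate 18, the medians of Gpx3 ran from 61.3 RPM in 16 C and 75.0 in 16-week HFD over 116 in 16-week CD, 135 in the low weight gainers, 285 in 4-week CD and 335 in 4-week HFD to 456 in 16 L. Those of Mgst1 ran from 482 in 16 L over 742 in 4-week CD, 1504 in 4-week HFD, 2525 in the low weight gainers and 3711 in 16-week CD to 4752 in 16-week HFD and 5222 in 16 C. The 2 orders ran in nearly opposite directions, which describes 7 group medians and was not tested. Neighbours in these orders had overlapping ranges with 2 exceptions. Gpx3 in 16 L without replicate 18 (437 to 614) lay above 4-week HFD (304 to 354), and Mgst1 in the low weight gainers (2023 to 3348) lay above 4-week HFD (895 to 1993).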

How the data were processed

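The authors deposited 1 table of read counts per gene for the 34 libraries, made by Smart-seq2 with oligo-dT priming and Nextera XT tagmentation, without strand information or molecular identifiers. Per the submitters' processing notes, Trim Galore 0.4.2, HISAT2 2.0.5 and GRCm38 were used. The counting program and annotation are not given in the sources used here. Groups came from the labels.

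Counts were tested as deposited with edgeR 4.0.16 in R 4.3.3 (TMM normalization, filterByExpr, robust quasi-likelihood test, two-sided), each comparison on its own groups, with Benjamini-Hochberg adjustment over all genes tested and a threshold of 0.05. The standard error was the log2 fold change over the root of F. Levels and figures were computed in Python 3.11.15 with numpy 2.4.6 and pandas 2.3.3. A count of 0 allows up to 3 reads (95% limit, counting error only). Alternatives were RLE and total-count scaling, no filter, DESeq2 1.42.0, limma-voom 3.58.1 with quality weights, 1 fit of all 34 libraries, and leaving out each library. The scripts were tested on simulated data. No pair of replicates held identical counts (72 pairs).

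Any member could be named. Full values were given for members called and for the leading member of each class, with the largest rise and fall per comparison, and pathway genes were named where called. Gstm1, Gstm2, Mgst2 and others described per library beyond this rule were chosen after their values were seen. The members and gene lists were chosen with earlier results of these data known. Exon lengths, positions and sequences came from GENCODE M21 and GRCm38.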

Additional observations from a re-analysis of the deposited data

Results flagged for a closer look

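Over the 20 members tested and the groups of 4 to 10 libraries, 100 sets of values were examined for a single library far from the rest of its group, on the scale of log2(normalised RPM + 1), and 9 had one. Chance gives about 1 in 20 for independent sets. These sets share their libraries, so the 9 cannot be set against that rate. Of the 9, 6 were in 16 L replicate 18.

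In that library Gstm2 was at 3558 RPM with the nearest other 16 L library at 136, Gsta4 at 216 with the nearest at 7.57, Gsto1 at 332 with the nearest at 68.9, Gstm5 at 278 with the nearest at 30.7 and Gstz1 at 81.8 with the nearest at 21.8. Gpx3 was the one that was low there, at 51.7 RPM with the nearest at 437.

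The other 3 stood in 3 different groups. Gpx7 was at 103 RPM in 16 L replicate 23 with the nearest at 71.2. Gpx8 was at 67.5 RPM in 4-week CD replicate 1 with the nearest at 36.7. Gstm2 was at 40.9 RPM in 16-week HFD replicate 12 with the nearest at 60.5.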

How the results depend on the processing

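No paired analysis was possible because the 2 groups set against each other share no replicate number. In the interaction, CD numbers recur between 4 and 16 weeks, and no label ties them. No direction of a member called with all libraries of its comparison reversed. Of the 4 members called with leptin, Mgst1 and Gpx3 were called in 6 of 6 alternatives, Mgst3 in 5 (not with total counts) and Gpx8 in 4 (not with total counts or without the filter). In leptin against saline 7 members were called with total counts (6 higher, 1 lower), 7 with DESeq2, 12 with limma-voom, 13 in the fit of all 34 libraries and 0 to 10 with 1 library left out. Over all genes, total counts called 4035, DESeq2 2628 and limma-voom 7552 of 11723, and the fit of all 34 libraries 4384 of 13236. Total counts moved the median of all genes from 0.27 to 1.08 and the share of higher genes among those called from 47.4% to 90.5%, and Gstm5, Gstm4, Gpx4 and Gstz1 changed sign (to 0.15 for Gstm5, 0.50 for Gpx4 and 0.56 for Gstz1, 3 members called lower without replicate 18). At 4 weeks limma-voom called 6 members (and 4048 of 11727 genes). With 1 library left out 0 to 1 were called (1 without 4-week CD replicate 11, where 1700 of 11794 genes were called). At 16 weeks total counts gave 1 (Gstp1), where 1646 of 10861 genes were called. Leaving out 1 library gave 0 to 1 (1 without 16-week CD replicate 9, where 2222 of 10830 genes were called). In low weight gainers against CD limma-voom gave 1 and leaving out 1 library 0. Against HFD limma-voom gave 6, the fit of all 34 libraries 0 and leaving out 1 library 0 to 4, and Gpx1 was not called with total counts. Over all genes limma-voom called 3287 of 11258 there, the fit of all 34 libraries 487 of 13236, and leaving out 1 library 596 to 2732. The interaction gave 1 with total counts (Gstp1) and 2 with limma-voom, where 873 and 2355 of 12235 genes were called. The cause of these differences was not tested. Over all genes, the 6 alternatives called 504 to 7552 for leptin (1004 in the main analysis), 69 to 4048 at 4 weeks (499), 3 to 1646 at 16 weeks (3), 0 to 250 for low weight gainers against CD (1), 487 to 3287 against HFD (2330) and 157 to 2355 for the interaction (448). With total counts the share of higher genes among those called was 3.34% in place of 33.3% at 16 weeks, 13.7% in place of 28.1% at 4 weeks, 72.6% in place of 52.0% against HFD and 21.4% in place of 47.5% for the interaction.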
